A study of Mus musculus with 30 samples.

Results

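AP-1 is a family of transcription factors that bind DNA as pairs of basic leucine zipper (bZIP) proteins. The 8 genes described here are the Fos class (Fos, Fosb, Fosl1 and Fosl2), the Jun class (Jun, Junb and Jund) and Atf3. They were taken from the deposited count table by matching Ensembl identifiers, without the version suffix, to these mouse symbols, and all 8 were found among 57186 gene rows, of which 37017 held at least 1 count. The family was chosen by its counts over all times in both lines, so its values are given as a description and no p-value is given for a member.

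Fos proteins pair with Jun proteins and not with each other, whereas Jun proteins can also pair among themselves. ATF3 pairs with Jun proteins or with itself, and as a pair with itself it is known as a repressor. Fos, Fosb, Jun, Junb and Atf3 are immediate-early or stress-response genes, whose transcription starts without new protein synthesis after serum, growth factors or stress. Their mRNAs are short-lived, and inhibitors of translation have long been known to raise them in fibroblasts, an effect called superinduction. Fosl1, Fosl2 and Jund are commonly present at steadier levels.

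RNA was sequenced from 2 mouse lines treated with cycloheximide, an inhibitor of translation elongation, at 0.1 µg/mL. NIH/3T3 are fibroblasts from mouse embryos, kept in DMEM with fetal bovine serum. CGR8 are mouse embryonic stem cells, kept in N2B27 with 2i and LIF. All cells of both lines, the 0 h controls included, carried the knock-in labelled ROSA26 SLT. RNA was taken at 0, 1, 2, 5 and 48 h in 3 replicates, lettered A to C, which gives 30 libraries in 10 groups. The study asked how the transcriptome of each line responds to slowed protein synthesis, each time being compared with 0 h. Because the lines differ in medium as well as in origin, line and medium cannot be told apart. In these bulk samples, fewer cells of a type and less RNA per cell cannot be told apart either.

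Libraries held 18.2 to 30.5 M counts. Levels are in CPM, which is counts relative to library totals scaled by TMM factors. These factors were computed separately within each line, so CPM of the 2 lines are not on 1 common scale. Fitted differences between the lines use factors from all 30 libraries. A count of 0 allows up to 3 counts, which equal 0.0963 to 0.164 CPM. The labels name no batch, and do not say whether replicates were separate cultures, so the spread between them may be technical. Of 10 markers of stem cells, Nanog, Pou5f1, Utf1, Fgf4, Tdgf1, Dppa5a, Esrrb and Zfp42 lay at or below 0.383 CPM in NIH/3T3 and at or above 121 CPM in CGR8, while Klf4 and Sox2 were present in both lines. Col1a1, Col1a2, Col3a1 and Lox marked NIH/3T3, but the fibroblast marker Thy1 did not exceed 0.0929 CPM there, below its 1.48 to 4.51 CPM in CGR8, and Postn did not exceed 0.959 CPM. Fn1 overlapped between the lines (882 to 1976 CPM in NIH/3T3 and 421 to 1149 CPM in CGR8), and Vim was present in CGR8 at 269 to 660 CPM. The summed CPM of 12 markers of differentiated cells was 11.9 to 20.2 in NIH/3T3 and 35.6 to 68.2 in CGR8. Some libraries stood apart from their replicates. In NIH/3T3 at 1 h, replicate C differed from A and B with a chi-square per degree of freedom over genes of 68.4 and 80.7, against 4.06 between A and B. Replicate A stood apart at 2 h (40.3 and 33.2, against 6.61 between B and C), as did replicate B of CGR8 at 0 h (32.4 and 32.5, against 3.26). In CGR8 at 2 h and 5 h all pairs of replicates differed, with values of 28.2 to 65.2.

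Promoter sequences are shown for the 5 members of immediate-early or stress type, whose levels in NIH/3T3 were all higher at 1 h and 2 h and came down by 5 h, though they went separate ways relative to 0 h at 5 h and 48 h. Of the 8 members, 7 had an entry in the RefSeq promoter table (GRCm38.p6, not the GRCm39 build that the submitters' processing notes name), a window of 250 bases before and 50 after the annotated start, and Fosl1 had none. Both strands were searched for the cyclic AMP response element TGACGTCA, its variant TGACATCA, the AP-1 site TGAGTCA, the 5 bases TGACG that the first of these contains, and the CArG box of serum response factor. The windows run 5′ to 3′ on the gene's strand, and capitals mark TGACG (or CGTCA, the same 5 bases on the other strand) and TGACATCA.
Fos, chr12:85473640-85473939, plus strand: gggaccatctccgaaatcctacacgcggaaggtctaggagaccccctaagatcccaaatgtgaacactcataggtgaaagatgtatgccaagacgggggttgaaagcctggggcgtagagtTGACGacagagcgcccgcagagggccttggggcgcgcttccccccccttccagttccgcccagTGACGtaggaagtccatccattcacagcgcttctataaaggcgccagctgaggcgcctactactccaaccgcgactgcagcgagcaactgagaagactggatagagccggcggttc
Fosb, chr7:19309996-19310295, minus strand: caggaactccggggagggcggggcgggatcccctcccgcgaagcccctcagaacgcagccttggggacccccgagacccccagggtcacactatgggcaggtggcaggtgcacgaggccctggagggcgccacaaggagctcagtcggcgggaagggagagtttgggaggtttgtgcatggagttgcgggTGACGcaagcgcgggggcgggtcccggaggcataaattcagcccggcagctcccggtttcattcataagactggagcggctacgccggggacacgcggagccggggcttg
Jun, chr4:95052173-95052472, minus strand: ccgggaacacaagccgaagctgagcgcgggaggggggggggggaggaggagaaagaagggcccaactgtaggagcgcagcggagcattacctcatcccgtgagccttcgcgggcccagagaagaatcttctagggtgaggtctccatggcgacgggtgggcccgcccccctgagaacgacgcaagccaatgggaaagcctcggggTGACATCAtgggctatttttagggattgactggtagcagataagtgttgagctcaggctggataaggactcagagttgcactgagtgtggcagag
Junb, chr8:84978699-84978998, minus strand: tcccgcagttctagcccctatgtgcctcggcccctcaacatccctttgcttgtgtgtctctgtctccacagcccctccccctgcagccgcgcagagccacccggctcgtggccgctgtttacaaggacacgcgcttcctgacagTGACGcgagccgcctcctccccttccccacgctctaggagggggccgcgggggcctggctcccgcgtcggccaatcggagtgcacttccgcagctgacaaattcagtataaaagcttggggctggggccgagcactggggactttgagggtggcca
Atf3, chr1:191183284-191183583, minus strand: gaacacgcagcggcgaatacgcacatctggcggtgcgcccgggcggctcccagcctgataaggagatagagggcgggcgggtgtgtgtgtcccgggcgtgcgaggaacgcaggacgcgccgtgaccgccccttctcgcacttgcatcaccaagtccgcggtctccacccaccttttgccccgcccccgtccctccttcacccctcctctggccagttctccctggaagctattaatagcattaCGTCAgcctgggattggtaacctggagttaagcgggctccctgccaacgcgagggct
The Jun window held TGACATCA at base 45 before the start. TGACG stood at bases 129 and 66 before the start of Fos, 60 before that of Fosb, 106 before that of Junb and 7 before that of Atf3. TATAAA, also searched for but not marked, stood 33 bases before the start of Fos and at base 1 after that of Junb, and 13.6% of all windows held it. All distances rest on the annotated start, whose position was not tested. These matches are letters in a window and not evidence of binding. Among 32851 promoter windows of the same length, 3.62% held TGACATCA and 20.8% held TGACG. The full element TGACGTCA (1.79% of all windows), TGAGTCA (5.2%) and the CArG box (1.63%) were in none of the 7 windows, which says only that these letters are not in these 300 bases. The windows of Fosl2 and Jund held none of the motifs.

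AU-rich elements in the 3′ untranslated region, with the pentamer ATTTA at their core, mark short-lived mRNAs and are shown because they are a sequence feature the members were not chosen on. In the GENCODE M21 transcript with the longest such region, Fos held 4 pentamers in 815 nt, which is 4.91 per kb. Junb held 4.12 per kb, Jun 3.24, Atf3 2.53, Jund 1.88, Fosl2 1.72, Fosl1 1.57 and Fosb 0.43 per kb. The median over 13785 genes tested in both lines together was 1.28 per kb and the upper quartile 2.57. Fos, Junb and Jun thus lay above the upper quartile, and Fosb lay below the median. The longer nonamer TTATTTATT was found in 8.07% of these genes, a share not matched for length. Their median region was 1152 nt long, and that of Fosl2 is 4653 nt. Among the members the nonamer was in Fos and Fosl2, where capitals mark it.
Fos: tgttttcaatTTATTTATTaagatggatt
Fosl2: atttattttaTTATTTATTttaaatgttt

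In untreated NIH/3T3 cells Jun was the most abundant member per exon length, and Fos and Fosb were the least. Per kb of exon, the mean level at 0 h was 83.5 CPM for Jun, 25.8 for Junb, 21.7 for Fosl1, 15.7 for Fosl2, 6.06 for Jund, 1.49 for Atf3, 0.254 for Fos and 0.23 for Fosb. The ranges of the 3 libraries overlapped between Junb and Fosl1 and between Fos and Fosb, and other neighbours in this order did not overlap. In untreated CGR8 cells the order was another one, with Jund at 9.62 CPM per kb, Junb at 7.54, Atf3 at 0.727, Jun at 0.589, Fos at 0.497, Fosb at 0.0537, Fosl2 at 0.0477 and Fosl1 at 0.0446. There the neighbours Atf3, Jun and Fos overlapped in turn, as did Fosb, Fosl2 and Fosl1. Exon lengths are from GENCODE M21, whose relation to the annotation of the counts is not known. Each is the union of all exons of a gene over its transcripts, such as 9.68 kb for Fosl2, 6.243 kb for Fosb and 2.033 kb for Fosl1. Where the transcripts in use are shorter than this union, the level per kb is understated. The order of members, such as Fosl1 above Fosl2, thus depends on these lengths, and other lengths were not tested.

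The lines at 0 h differed most in Fosl1, Fosl2 and Jun. Jun, the founding partner of the family, was at 262, 253 and 284 CPM in NIH/3T3 and at 2.28, 2.1 and 1.26 CPM in CGR8 (log2 difference, CGR8 minus NIH/3T3, −7.17 ± 0.18 (SE) in the model of all 30 libraries). Fosl1, which encodes FRA-1, was at 40.3, 41.9 and 50 CPM in NIH/3T3 and rested on 2, 1 and 4 counts in CGR8. Fosl2, which encodes FRA-2, was at 159, 146 and 150 CPM in NIH/3T3 and rested on 15, 12 and 10 counts in CGR8. For these 3 genes the libraries of the lines lay far apart at every time. Differences were smaller for Fosb (−2.15 ± 0.40), Junb (−1.82 ± 0.15) and Atf3 (−1.09 ± 0.23), while Jund (0.62 ± 0.20) and Fos (0.91 ± 0.30) lay higher in CGR8. By edgeR's quasi-likelihood test at a Benjamini-Hochberg adjusted p under 0.05, 2 members were called higher and 6 lower in CGR8, where 42.8% and 36.3% of 17549 genes were. These counts, like all counts of members below, come from the values that chose the members, and nothing is read from them.

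**Figure D1:**
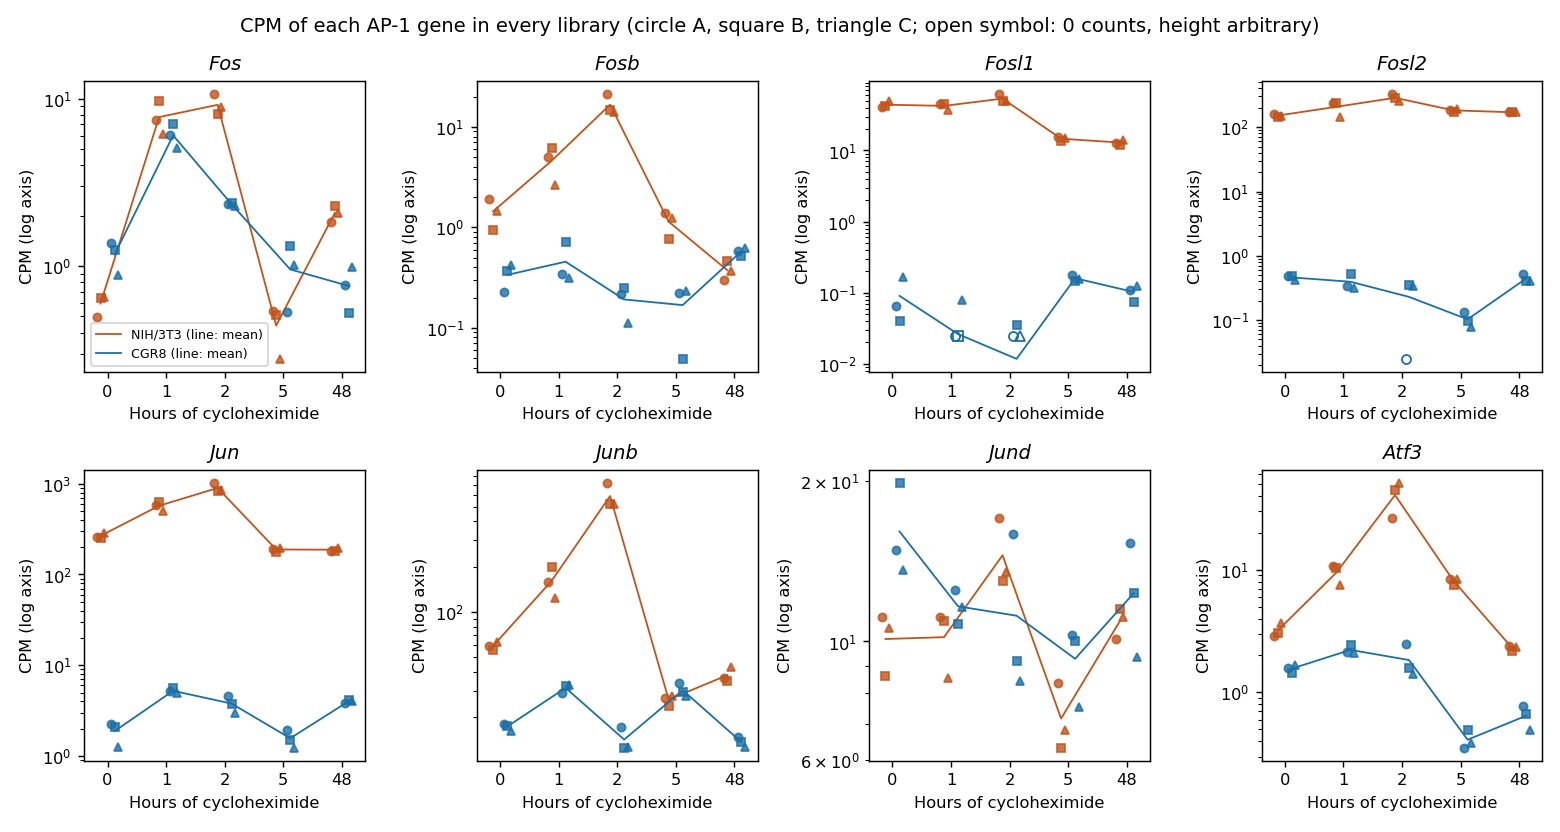
CPM of each of the 8 AP-1 genes (log axis) in every library of NIH/3T3 (orange) and CGR8 (blue) by hours of cycloheximide, with 1 point per library and a line through the group means. In NIH/3T3 the levels of Fos, Fosb, Jun, Junb and Atf3 peak at 2 h and lie much lower at 5 h, while in CGR8 Fos and Jun peak at 1 h; Fosl1 and Fosl2 stay under 0.54 CPM in all CGR8 libraries.

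Fos, whose protein is the classical partner of JUN, had the largest fitted increase of the family at 1 h in both lines, among members with enough counts. At 2 h the changes of Atf3 and Fosb in NIH/3T3 and that of Jun in CGR8 were not clearly apart from that of Fos, given their errors. In NIH/3T3 Fos was at 0.494, 0.64 and 0.657 CPM at 0 h, at 7.46, 9.68 and 6.1 CPM at 1 h, and at 10.6, 8.04 and 8.86 CPM at 2 h. All libraries at 1 h and 2 h lay above all at 0 h. The log2 fold change was 3.67 ± 0.23 (SE) at 1 h, or 12.7-fold, and 3.91 ± 0.23 at 2 h, or 15-fold. At 5 h it was back at 0.535, 0.51 and 0.279 CPM, which overlapped the controls (log2 fold change −0.43 ± 0.35). At 48 h it was at 1.84, 2.29 and 2.08 CPM, again above all controls (1.76 ± 0.26). These levels rest on 6 to 231 counts per library, which makes Fos among the least abundant genes of the family in NIH/3T3 even at its peak.

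In CGR8, Fos started at 1.38, 1.25 and 0.879 CPM and reached 6.02, 7.02 and 5.03 CPM at 1 h (log2 fold change 2.35 ± 0.25, 5.08-fold). At 2 h it had already come down to 2.36, 2.37 and 2.28 CPM (0.98 ± 0.26), still above all controls. This value was not called when replicate C of 0 h (0.82) or replicate C of 2 h (1.00) was left out. Levels at 5 h (0.533, 1.32 and 1.01 CPM) and at 48 h (0.77, 0.522 and 0.987 CPM) overlapped those at 0 h. The peak thus lay at 1 h in CGR8, while in NIH/3T3 the ranges at 1 h and 2 h overlapped (step from 1 h to 2 h 0.24 ± 0.16, against −1.36 ± 0.24 in CGR8).

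Fosb, a close relative of Fos, went from 1.92, 0.939 and 1.45 CPM at 0 h in NIH/3T3 to 4.99, 6.16 and 2.61 CPM at 1 h and to 21.1, 14.6 and 14.2 CPM at 2 h. Its log2 fold change was 1.70 ± 0.30 at 1 h and 3.54 ± 0.29 at 2 h, and most of the change came after 1 h (1.84 ± 0.25 from 1 h to 2 h). The 1 h change was not called without replicate C of 0 h (1.71) or replicate B of 1 h (1.44). Levels at 5 h (1.4, 0.765 and 1.25 CPM) overlapped the controls. At 48 h Fosb was at 0.3, 0.459 and 0.364 CPM, below all controls (−1.92 ± 0.46), on 8, 11 and 7 counts. In CGR8 it rested on 1 to 16 counts in every library. It passed the filter on low counts there only with its 48 h libraries, so no fold from 0 h is given for CGR8. These libraries held 16, 14 and 15 counts, against 7, 9 and 10 at 0 h. None of its changes from 0 h was called in this line.

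Fosl1 and Fosl2 behaved unlike Fos and Fosb. In NIH/3T3, Fosl1 at 1 h (44.5, 45.6 and 37 CPM) and 2 h (61.7, 48.9 and 50.2 CPM) overlapped its controls at 40.3, 41.9 and 50 CPM. It then was at 15.3, 13.7 and 14.9 CPM at 5 h and at 12.6, 12.1 and 14.1 CPM at 48 h. These late libraries all lay below all earlier ones, with log2 fold changes of −1.59 ± 0.12 and −1.77 ± 0.12. Fosl2 reached 325, 280 and 254 CPM at 2 h (0.92 ± 0.14), above all controls, and came down to 183, 172 and 193 CPM at 5 h (0.27 ± 0.14) and 170, 171 and 171 CPM at 48 h (0.17 ± 0.14). Neither late value was called, although all these libraries still lay above the controls. At 1 h Fosl2 was at 235, 242 and 146 CPM, where replicate C lay within the controls (0.46 ± 0.14, and 0.64 without that library, which was then called). In CGR8, Fosl1 held 0 to 4 counts per library and was not tested, and Fosl2 held 0 to 15 counts. For Fosl2 at 5 h in CGR8 these were 3, 2 and 2 counts, at or under the limit of 3 counts, so that no fold is given.

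Jun had the highest mean level per exon length in NIH/3T3 at every time, although its range overlapped that of Junb at 2 h. It was at 582, 631 and 501 CPM at 1 h (log2 fold change 1.10 ± 0.10) and at 1019, 830 and 843 CPM at 2 h (1.75 ± 0.10, 3.37-fold), from 262, 253 and 284 CPM at 0 h. At 5 h it was at 193, 178 and 195 CPM, below all controls (−0.50 ± 0.10), and at 48 h at 182, 183 and 197 CPM (−0.51 ± 0.10). In CGR8, at far lower levels, Jun went from 2.28, 2.1 and 1.26 CPM to 5.14, 5.6 and 4.95 CPM at 1 h (1.46 ± 0.22, with a line difference of 0.38 ± 0.22 that was not called) and 4.64, 3.74 and 2.95 CPM at 2 h (0.99 ± 0.22), then overlapped the controls at 5 h (1.95, 1.52 and 1.24 CPM). At 48 h it was at 3.85, 4.18 and 4.03 CPM (1.08 ± 0.22), above all controls and close together.

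Junb, a Jun protein known for weaker activation and for opposing JUN on some promoters, showed with Fos the largest steps down of the family. In NIH/3T3 it was at 59.1, 55.9 and 63.4 CPM at 0 h, at 159, 200 and 123 CPM at 1 h (1.43 ± 0.16) and at 718, 523 and 523 CPM at 2 h (3.30 ± 0.17, 9.88-fold). At 5 h it was at 27, 23.8 and 27.9 CPM, below all controls (−1.18 ± 0.16). From 2 h to 5 h this is a log2 change of −4.49 ± 0.18, or 22.4-fold, beside −4.34 ± 0.24 for Fos. At 48 h Junb was at 36.5, 34.7 and 42.9 CPM (−0.65 ± 0.16), still below the controls.

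In CGR8, Junb had 2 separate maxima. It went from 18.1, 17.6 and 16.3 CPM to 29, 32.4 and 32.7 CPM at 1 h (0.85 ± 0.13), and was at 17.3, 12.6 and 12.8 CPM at 2 h (−0.29 ± 0.13), where the groups overlapped. At 5 h it was at 33.6, 29.5 and 27.7 CPM (0.80 ± 0.13), and at 48 h at 14.7, 13.8 and 12.7 CPM (−0.34 ± 0.13, not called), below all controls. All libraries at 1 h and 5 h lay above all others of the line. The 1 h value was not called when replicate C of 0 h (0.81) or replicate C of 1 h (0.82) was left out, with 4 of 6 such fits keeping the call.

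The exons of Junb overlap those of Prdx2, a peroxiredoxin gene on the opposite strand, and whether the counting used strand is not given in the sources used here. In CGR8, Prdx2 was the far more abundant gene, at 326 ± 52.1 CPM (SD, n = 3) at 0 h and 560 ± 107 CPM at 5 h. Its log2 fold change at 5 h was 0.78 ± 0.16, the size of that of Junb, and at 1 h it was −0.18 ± 0.16. Junb counts were 5.4% ± 0.786 (SD, n = 3) of Prdx2 counts before treatment, 10.9% ± 0.228 at 1 h and 3.39% ± 0.561 at 2 h. They were 5.49% ± 0.674 at 5 h and 5.47% ± 0.521 at 48 h. The ratio was therefore higher than at 0 h at 1 h but not at 5 h, and the part of Prdx2 reads in the 5 h value of Junb was not tested. In NIH/3T3 the 2 genes moved apart, with Junb at 36% ± 1.19 of Prdx2 at 0 h, 268% ± 47.2 at 2 h and 12.8% ± 1.18 at 5 h.

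**Figure D2:**
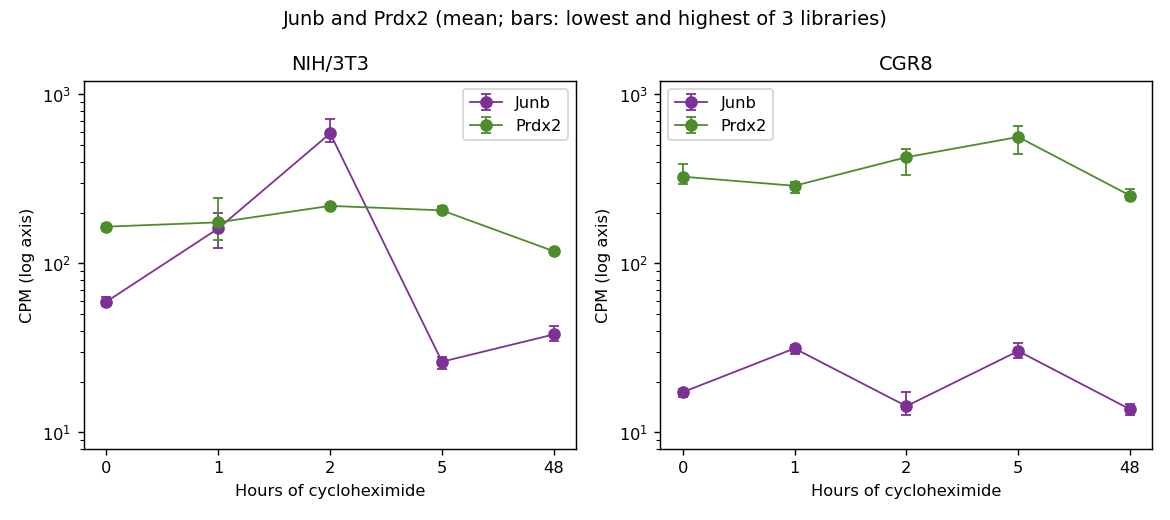
Mean CPM (log axis) of Junb and of Prdx2, which overlaps it on the opposite strand, by hours of cycloheximide in NIH/3T3 (left) and CGR8 (right); bars run from the lowest to the highest of 3 libraries. In NIH/3T3 Junb crosses above Prdx2 at 2 h and falls below it at 5 h, whereas in CGR8 both genes are higher at 5 h than at 0 h and Junb alone is higher at 1 h.

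Other members overlap genes with other courses. Fosl1 shares exon sequence with Ccdc85b on the opposite strand, which in NIH/3T3 was at 25.5 ± 2.10 CPM at 0 h and 26 ± 1.42 CPM at 5 h (log2 fold change 0.03 ± 0.19), when Fosl1 was about 3-fold lower. In CGR8 the highest count of Fosl1 in any library was 4 while that of Ccdc85b was 364. Jun overlaps its antisense RNA Junos, which in NIH/3T3 was at 4.56 ± 0.428 CPM at 0 h and 4.42 ± 0.754 CPM at 2 h, when Jun was at 830 to 1019 CPM. Gm11175, antisense to Jund, had 0 counts in all libraries.

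Jund, the member usually held steady in growing cells, changed by at most about 2-fold. In NIH/3T3 it was at 11.1, 8.62 and 10.6 CPM at 0 h, 17, 13 and 13.5 CPM at 2 h (0.51 ± 0.14) and 8.36, 6.33 and 6.83 CPM at 5 h (−0.49 ± 0.15). The step from 2 h to 5 h was −1.01 ± 0.15 (2.01-fold), with no overlap. Neither change from 0 h was large, and neither was called when replicate B of 0 h (0.41 at 2 h) or replicate B of 5 h (−0.41 at 5 h) was left out, respectively. In CGR8 it was at 14.8, 19.8 and 13.6 CPM at 0 h and at 10.3, 10 and 7.54 CPM at 5 h (−0.79 ± 0.23), which was not called without replicate B of 0 h (−0.60).

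Atf3, a stress-response gene whose product can repress its own promoter, differed in direction between the lines at 5 h. In NIH/3T3 it was at 2.86, 3.03 and 3.71 CPM at 0 h, 10.7, 10.3 and 7.48 CPM at 1 h (1.56 ± 0.22), and 26.4, 44.4 and 50.9 CPM at 2 h (3.65 ± 0.21, 12.6-fold). Replicate A at 2 h was the lowest for Atf3 although it was the highest of its group for the other 7 members, and without it the 2 h change of Atf3 was 3.89. At 5 h Atf3 was at 8.36, 7.48 and 8.46 CPM, above all controls (1.32 ± 0.22), and it was the only member called higher at that time. At 48 h it was at 2.4, 2.17 and 2.34 CPM, below all controls but not called (−0.49 ± 0.25).

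In CGR8, Atf3 went from 1.57, 1.45 and 1.67 CPM at 0 h to 2.15, 2.43 and 2.08 CPM at 1 h (0.50 ± 0.22, not called) and 2.49, 1.59 and 1.42 CPM at 2 h. At 5 h it was at 0.355, 0.49 and 0.389 CPM (−1.92 ± 0.28, 3.8-fold lower), and at 48 h at 0.77, 0.671 and 0.494 CPM (−1.27 ± 0.25). All libraries at 5 h and 48 h lay below all earlier ones. The 5 h libraries hold 8, 10 and 10 counts.

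**Figure D3:**
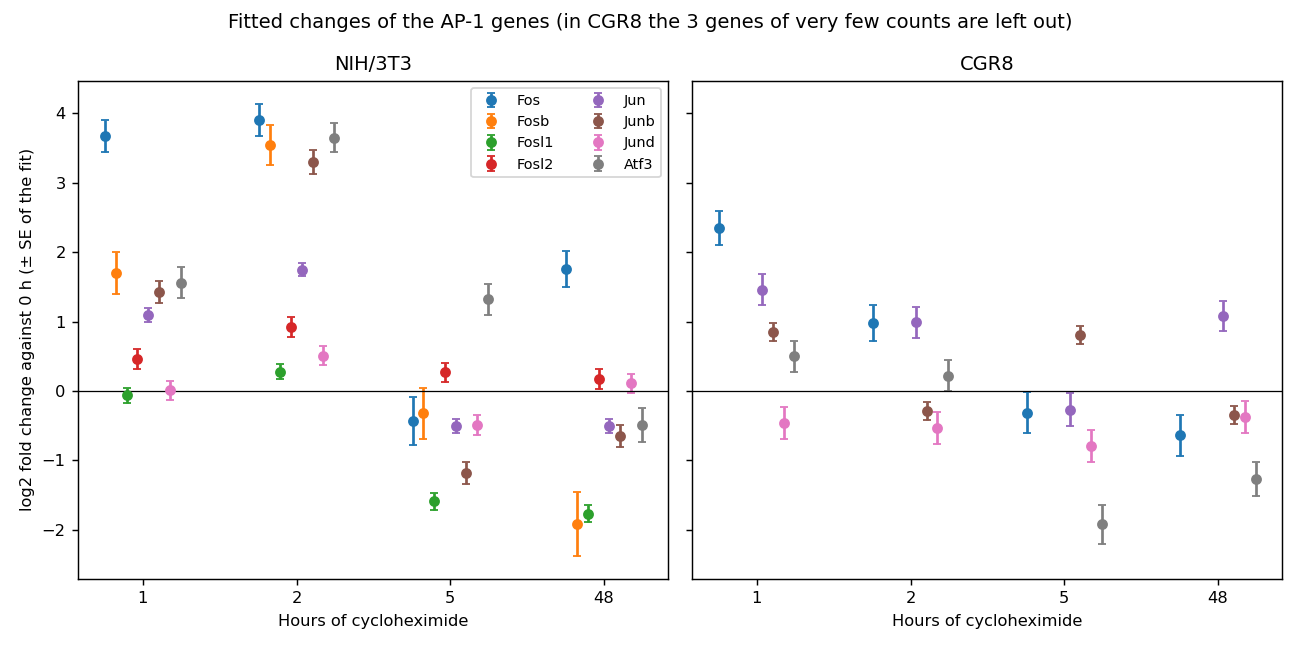
Fitted log2 fold change against 0 h (vertical axis, bars ± SE of the fit) of the AP-1 genes by hours of cycloheximide in NIH/3T3 (left, 8 genes) and CGR8 (right, 5 genes; Fosb, Fosl1 and Fosl2 are left out for their few counts). In NIH/3T3 Fos, Fosb, Junb and Atf3 stand above 3 at 2 h, while at 5 h only Atf3 stands above 1; in CGR8 Fos is highest at 1 h and Atf3 lowest at 5 h.

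Counting calls in NIH/3T3, 5 members passed the threshold at 1 h, all higher, where 0.653% of 13941 genes were called higher and 0.0789% lower. At 2 h 7 members were called, all higher, where 16.1% of genes were called higher and 18.9% lower, and Fosl1 was the member not called. At 5 h 1 member (Atf3) was called higher and 4 (Fosl1, Jun, Junb and Jund) lower, where 24% and 27.1% of genes were. At 48 h 1 member (Fos) was called higher and 4 (Fosb, Fosl1, Jun and Junb) lower, where 26.7% and 25.6% of genes were. The median log2 fold change of the 8 members was 1.27 at 1 h and 2.53 at 2 h, and then −0.46 and −0.50 at the later times, beside medians of all genes of 0.02, −0.01, −0.01 and −0.01. Between 2 h and 5 h the fitted change of all 8 members was downward, from −0.65 ± 0.14 for Fosl2 to −4.49 ± 0.18 for Junb, with no overlap between the 2 groups of libraries for any member. The median of all genes over this step was −0.01. Shares of all genes were not computed for it, so nothing is read from this count. Leaving out replicate C at 1 h gave log2 fold changes of 3.79 for Fos, 1.95 for Fosb, 1.17 for Jun, 1.58 for Junb and 1.68 for Atf3. Without replicate A at 2 h they were 3.81, 3.35, 1.67, 3.15 and 3.89.

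In CGR8, 7 members passed the filter on low counts, of which Fosb and Fosl2 did so on few counts. At 1 h 3 members (Fos, Jun and Junb) were called, all higher, where 0.144% of 15933 genes were called higher and 0.126% lower. At 2 h 2 members (Fos and Jun) were called, both higher, where 8.97% of genes were called higher and 11% lower, and Jun was not called when only the libraries of 0 h and 2 h were fitted. At 5 h 1 member (Junb) was called higher and 3 (Fosl2, Jund and Atf3) lower, where 24.9% and 27.2% of genes were. At 48 h 1 member (Jun) was called higher and 1 (Atf3) lower, where 12.2% and 15.6% of genes were. The 4 immediate-early or stress members with enough counts, Fos, Jun, Junb and Atf3, thus stood above 0 h to different degrees at 1 h and went separate ways by 5 h. Without replicate B of 0 h, which stood apart, the 1 h changes were 2.38 for Fos, 1.53 for Jun, 0.86 for Junb and 0.45 for Atf3.

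The difference between the lines in the change from 0 h was fitted as an interaction in the model of all 30 libraries. At 1 h no member was called, where 0.0171% of genes were called higher and 0.142% lower in CGR8. The log2 differences, CGR8 minus NIH/3T3, were −1.30 ± 0.36 for Fos, −1.04 ± 0.32 for Atf3 and −0.56 ± 0.21 for Junb. For Jund the value was −0.45 ± 0.29 and for Jun 0.38 ± 0.22. The lack of calls at 1 h does not show that the lines responded alike. DESeq2 also called 0 members there, and limma's voom with sample weights called 3. Members at an unadjusted p under 0.05 numbered 4 at 1 h, and 8, 4 and 5 at the later times in order. No share of all genes is given for the unadjusted or voom counts, so nothing is read from them. At 2 h 4 members were called, all with the lower change in CGR8, where 0.866% of genes were called higher and 1.16% lower. The log2 differences, CGR8 minus NIH/3T3, were −2.87 ± 0.37 for Fos, −3.54 ± 0.21 for Junb and −3.39 ± 0.32 for Atf3, and Fosb was the fourth, on 3 to 7 counts in CGR8 at 2 h. Jun, with −0.71 ± 0.22, was not called. At 5 h 2 members were called higher and 2 lower, where 8.18% and 5.09% of genes were. Junb changed by 2.07 ± 0.21 more in CGR8 and Atf3 by −3.16 ± 0.38. The part of Prdx2 reads in the 5 h value of Junb in CGR8 was not tested. The other members called were Fosl1 and Fosl2, which rest on at most 4 and 15 counts in CGR8. At 48 h 3 members were called higher and 1 lower, where 9.78% and 12.1% of genes were. Jun (1.57 ± 0.22) and Fosb (2.70 ± 0.61, on 7 to 16 counts per library in CGR8) had the higher change in CGR8, Fos (−2.43 ± 0.40) the lower, and the remaining one, Fosl1, again rests on few counts.

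The make-up of each class shifted with time when levels per exon length were added up. In NIH/3T3 Jun held 72.4% ± 0.559 (SD, n = 3) of Jun-class RNA at 0 h and 51.8% ± 1.70 at 2 h, while Junb went from 22.4% ± 0.0368 to 46.7% ± 1.71. At 5 h the shares were 79% ± 0.758 for Jun and 15.2% ± 0.456 for Junb. Junb and Jun were thus near parity at 2 h, where their levels per kb overlapped (227 to 312 and 260 to 320 CPM per kb). In CGR8, Jund held 53.9% ± 4.32 of Jun-class RNA at 0 h, Junb 42.8% ± 4.23 and Jun 3.29% ± 0.786. Junb was the larger there at 1 h (61.2% ± 2.78) and at 5 h (68.5% ± 2.31), and Jund at 48 h (50.1% ± 4.80), where their levels per kb overlapped between libraries. The part of Prdx2 reads in the Junb share at 5 h was not tested.

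Fos-class RNA in NIH/3T3 was mainly Fosl1 (57.2% ± 3.29) and Fosl2 (41.5% ± 3.22) at 0 h. Fos held 0.671% ± 0.0926 of it at 0 h and no more than 7.10% ± 0.757, at 1 h, so that Fosl1 and Fosl2 made up most of the class even at the peak of Fos and Fosb. At 5 h Fosl2 held 71.4% ± 1.01 and Fosl1 27.2% ± 0.742. In CGR8 Fos held 76.6% ± 9.33 of the class at 0 h and 95.3% ± 1.12 at 1 h, where the other members of the class rest on few counts. Jun-class RNA exceeded Fos-class RNA 3.05-fold (SD 0.0582, n = 3) in NIH/3T3 at 0 h, 5.54-fold (SD 0.400) at 1 h, 8.71-fold (SD 0.252) at 2 h and 2.83-fold (SD 0.0404) at 5 h. In CGR8 the ratio was 27.6 (SD 2.92) at 0 h and 8.44 (SD 1.51) at 1 h. It thus moved in opposite directions in the 2 lines in the first hour, with no overlap between 0 h and 1 h in either line. Shares and ratios of both classes depend on the exon-union lengths, and other lengths were not tested. These are shares of RNA and say nothing of protein.

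**Figure D4:**
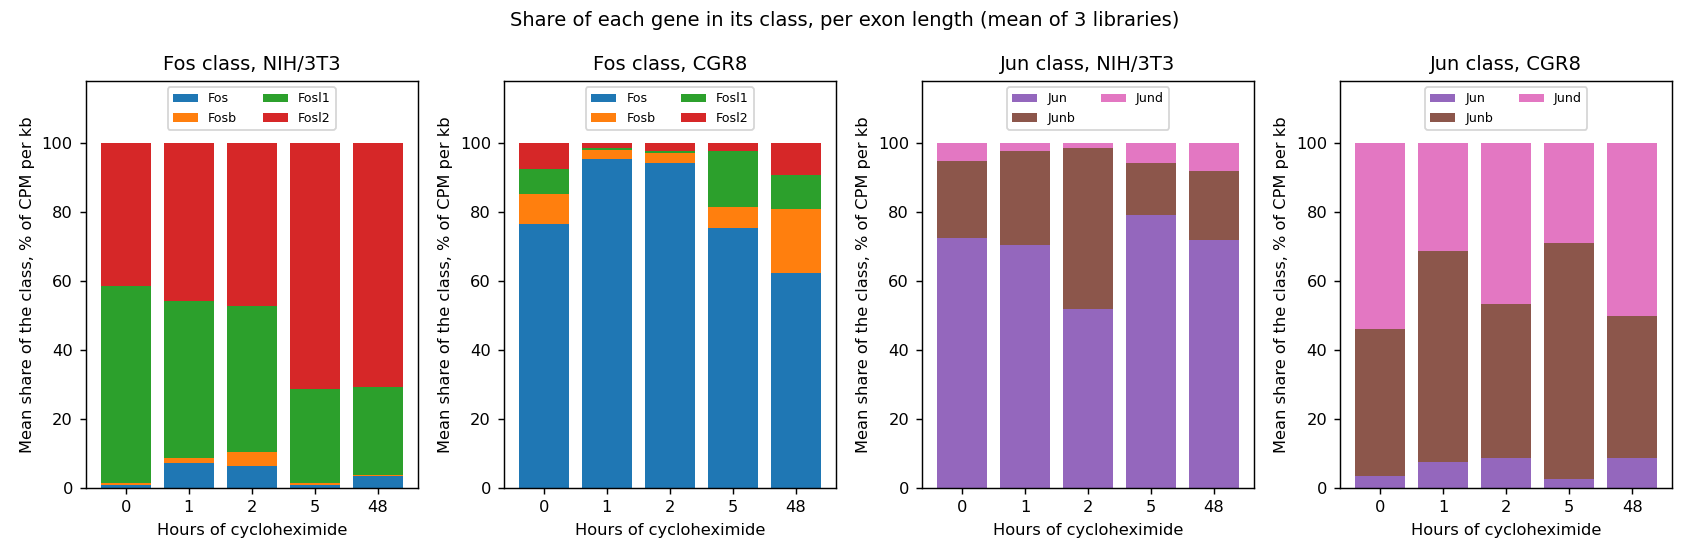
Mean share (percent of CPM per kb of exon, mean of 3 libraries) of each gene in Fos-class RNA and in Jun-class RNA by hours of cycloheximide, in NIH/3T3 and CGR8. In NIH/3T3 Junb grows to 46.7% of the Jun class at 2 h while Fos never exceeds 7.10% of the Fos class; in CGR8 Fos is the largest part of the Fos class at all times and Jun is under 10% of the Jun class.

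Members of the family differed in which other genes followed the same course. Likeness was measured as Pearson's r of log2 CPM over the 15 libraries of a line, which share their time points and scaling, among 9641 genes in NIH/3T3 and 9751 in CGR8. In NIH/3T3 the courses nearest to Jun were those of Ier2 (r = 0.994), Csrnp1 (0.990) and Phlda1 (0.987), and Ier2 went from 57.6 CPM at 0 h to 273 at 2 h and 34 at 5 h. Nearest to Junb were Trib1 (0.982), Socs3 (0.982) and Cttnbp2nl (0.981). Fos was most like Btg2 (0.951), Dusp1 (0.949) and Egr2 (0.935), and Fosb most like Gdnf (0.990), Errfi1 (0.978) and Sgk1 (0.975). For Atf3 these were Ankrd1 (0.977), Arrdc3 (0.976) and Skil (0.976). Fosl1 followed another set, Insig1 (0.987), Cyth2 (0.976) and Zfand2a (0.975), and Insig1 went from 58.5 CPM at 0 h to 64 at 2 h and 9.58 at 5 h. For Jund they were Ppp1r18 (0.954), Dlx2 (0.916) and Arl4c (0.909). Within the family in NIH/3T3, r was 0.98 between Jun and Junb, 0.95 between Jun and Fosb and 0.38 between Jund and Atf3. In CGR8 it was −0.09 between Jun and Junb, −0.04 between Junb and Atf3, 0.57 between Fos and Jun and 0.75 between Fos and Atf3.

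In CGR8 the highest r was lower than in NIH/3T3 for Fos, Jun, Junb and Atf3. Fos was nearest to Egr1 (0.893), Flrt3 (0.845) and Dgke (0.821), and Egr1 went from 1.12 CPM at 0 h to 45.6 at 1 h and 23 at 2 h. Atf3 was nearest to Pdp2 (0.969), Tbx3 (0.963) and Synj2 (0.953), all lower at 5 h than at 0 h. Jun was nearest to Kcnk5 (0.930), and Junb to Pim3 (0.768) and Socs3 (0.751). Socs3 was thus among the 3 nearest genes of Junb in both lines.

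Genes that AP-1 is known to activate moved mainly upward in NIH/3T3 at 2 h and downward at 48 h. This list and the other lists below were chosen with earlier results of these data known, so their counts are a description. Of 28 such genes, 23 could be tested in NIH/3T3, and at 2 h 15 were called higher and 3 lower (edgeR, adjusted p under 0.05), where 16.1% and 18.9% of all genes were, with a median log2 fold change of 0.49 beside −0.01 for all genes. At 5 h 10 were called higher and 7 lower (median 0.23), where 24% and 27.1% of all genes were. At 48 h 3 were called higher and 13 lower (median −0.63), where 26.7% and 25.6% of all genes were. The 3 called lower at 2 h are near the share of all genes, and the 3 called higher at 48 h are under it, on few genes. At 1 h only Ptgs2, which encodes the inducible prostaglandin synthase, was called (log2 fold change 1.06 ± 0.21, edgeR adjusted p = 0.0214). That 1 h count of 1 rests on most single libraries. It was 0 without replicate A or C of 0 h, without replicate A or B of 1 h, with library size alone or with the compared groups only. It was 4 without replicate C of 1 h, 7 without the filter on low counts and 14 with voom. The gene with the largest rise at 2 h by the naming rule was the chemokine Cxcl1 (2.19 ± 0.51, edgeR adjusted p = 0.00425), at 1.36, 9.56 and 10.4 CPM against 1.92, 1.11 and 1.71 CPM at 0 h. Replicate A lay within the controls. It is the library that stood apart over all genes at 2 h, in which Atf3 was the lowest of its group and all other members were the highest. At 5 h Cxcl1 was at 6.38, 6.21 and 6.23 CPM (1.99 ± 0.51, edgeR adjusted p = 0.00404), when the groups no longer overlapped.

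Hbegf (a growth factor) and Ptgs2, named here after their values were seen, rose at 2 h by 1.98 ± 0.11 and 1.56 ± 0.21 (edgeR adjusted p = 1.87e-09 and 8.8e-05). At 48 h they had fallen below 0 h by −2.00 ± 0.11 and −1.46 ± 0.21 (edgeR adjusted p = 1.93e-09 and 3.63e-05). Falls at 2 h included Mmp14, a membrane matrix metalloproteinase (−0.59 ± 0.10, edgeR adjusted p = 0.000708), and at 5 h the largest was Hmox1, heme oxygenase 1 (−2.10 ± 0.10, edgeR adjusted p = 6.77e-10). In CGR8, 15 of the 28 genes could be tested. At 2 h 4 were called, all lower (median −0.29), where 11% of all genes were called lower. At 5 h 2 were called higher and 9 lower (median −0.50), where 24.9% and 27.2% of all genes were, and at 48 h 2 higher and 6 lower (median −0.53), where 12.2% and 15.6% were. The 2 h count in CGR8 lay between 1, when only the compared groups were fitted or replicate C of 2 h was left out, and 7 with DESeq2 or voom. Plaur, the urokinase receptor, fell by 1.58 on the log2 scale at 5 h (SE 0.19, edgeR adjusted p = 8.8e-06), and Spp1, osteopontin, rose by 0.52 ± 0.10 (edgeR adjusted p = 0.000559). Whether the list differs between the lines was not tested.

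Other bZIP proteins, which pair with AP-1 members or compete for related sites, were called in both directions in NIH/3T3 and mostly lower in CGR8. In NIH/3T3 22 of 28 were tested, and 8 were called higher and 3 lower at 2 h, where 16.1% and 18.9% of all genes were. Counts were 6 and 9 at 5 h (24% and 27.1% of all genes) and 11 and 6 at 48 h (26.7% and 25.6%). The 6 higher at 5 h and the 6 lower at 48 h are near the shares of all genes. Nfil3, a transcriptional repressor, was at 8.64, 8.15 and 9.79 CPM at 0 h and 47.6, 37.6 and 40.3 CPM at 2 h (2.23 ± 0.11, edgeR adjusted p = 1.04e-09), and remained up at 5 h (1.25 ± 0.11, edgeR adjusted p = 4.71e-07). Jdp2, which pairs with JUN and represses, fell at 2 h (−0.99 ± 0.12, edgeR adjusted p = 2.02e-05), and Mafg, a small Maf protein, fell at 5 h (−1.12 ± 0.13, edgeR adjusted p = 3.74e-06). In CGR8, 9 of 22 were called at 2 h, all lower (median −0.57 beside 0.01 for all genes), or 5 when only the compared groups were fitted, where 11% of all genes were called lower. At 5 h 3 were called higher and 15 lower (median −0.95), where 24.9% and 27.2% of all genes were. These 18 calls became 10 calls when genes under a mean of 5 CPM were left out. Among genes with at least 5 CPM, Mafg led the falls at both times (−1.16 ± 0.12 and −1.68 ± 0.12, edgeR adjusted p = 2.54e-05 and 1.76e-07), and Crem, a cyclic AMP responsive factor, rose at 5 h (0.67 ± 0.14, edgeR adjusted p = 0.000895).

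Genes of the MAP kinase cascade, which acts upstream of the family, were called at 2 h in NIH/3T3 in shares near or under those of all genes, and mostly lower in both lines at 5 h. Of 21 such genes found in the table, 21 were tested in NIH/3T3 and 20 in CGR8. In NIH/3T3 2 were called higher and 4 lower at 2 h (median −0.14), where 16.1% and 18.9% of all genes were. These 6 calls ranged from 2 without replicate A of 0 h to 14 with voom, with 3 without replicate C of 2 h and 11 without replicate A of 2 h. At 5 h 3 were called higher and 12 lower (median −0.35), where 24% and 27.1% of all genes were, and at 48 h 8 higher and 5 lower (26.7% and 25.6%). At 5 h Mapk8, which encodes the JUN kinase JNK1, rose by 0.65 ± 0.17 (edgeR adjusted p = 0.00459) and Map2k6, a p38 activator, fell (−1.04 ± 0.11, edgeR adjusted p = 2.24e-06). In CGR8 4 were called at 2 h, all lower, where 11% of all genes were called lower, and no call was left when replicate A or C of 0 h or replicate C of 2 h was left out. At 5 h 12 were called, all lower (median −0.40), where 27.2% of all genes were called lower, led by Map3k20, the kinase ZAK that senses stalled ribosomes (−0.90 ± 0.14, edgeR adjusted p = 7.21e-05). Calls at 2 h for Rps6ka5 in NIH/3T3 (0.36 ± 0.11) and Map3k1 in NIH/3T3 (−0.64 ± 0.19) and CGR8 (−0.68 ± 0.19) were lost when certain libraries were left out, and that of Rps6ka5 also with the compared groups only, library size alone or no filter (edgeR adjusted p = 0.0515, 0.0556 and 0.0516).

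Serum response factor and its partners, which drive Fos through the serum response element, were called lower or not at all up to 5 h. Of 6 such genes, 3 were called lower at 2 h in NIH/3T3 (1 without replicate A of 0 h or replicate C of 2 h, and 5 with voom) and 4 at 5 h, where 18.9% and 27.1% of all genes were called lower. At 48 h 2 were called, both higher, Srf (0.61 ± 0.12, edgeR adjusted p = 0.000696) and Mrtfb (0.70 ± 0.16, edgeR adjusted p = 0.00159), which were chosen after their values were seen. These 2 are near the share of all genes, of which 26.7% were called higher. Calls in either direction were 5 with the compared groups only and 6 with voom. Mrtfa fell at 2 h (−0.81 ± 0.14, edgeR adjusted p = 0.000524) and Elk1 at 5 h (−0.92 ± 0.13, edgeR adjusted p = 3.85e-05). In CGR8, 4 were called lower at 2 h and all 6 at 5 h (median −0.98 beside −0.01 for all genes), where 11% and 27.2% of all genes were called lower, and 2 were called lower at 48 h, where 15.6% of all genes were. Of the 6, Mrtfb was lowest at 5 h (−1.64 ± 0.18, edgeR adjusted p = 4.03e-06).

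Factors that act on AU-rich mRNAs included Zfp36, which encodes tristetraprolin, a protein that speeds decay of such mRNAs. In NIH/3T3, Zfp36 was higher at 2 h and lower at 5 h than before treatment, as Junb was, at 14.1, 12.9 and 14.5 CPM at 0 h, 45.7, 32.7 and 36.1 CPM at 2 h (1.46 ± 0.15, edgeR adjusted p = 4.93e-06) and 5.6, 4.63 and 6.09 CPM at 5 h (−1.35 ± 0.17, edgeR adjusted p = 7.88e-06). Of 16 genes in this list, 2 were called higher and 6 lower at 2 h, where 16.1% and 18.9% of all genes were, and 2 higher and 8 lower at 5 h, where 24% and 27.1% were. The 2 called higher at 2 h are near the share of all genes, and the 2 called higher at 5 h are under it, on few genes. The largest fall at 2 h was that of Khsrp (−0.62 ± 0.12, edgeR adjusted p = 0.000995), and the largest rise at 5 h that of Tia1 (0.74 ± 0.16, edgeR adjusted p = 0.000969). In CGR8, 5 were called at 2 h, all lower, a count of 3 to 9 under the alternatives, where 11% of all genes were called lower, led by Zfp36l2 (−1.15 ± 0.16, edgeR adjusted p = 0.000265). At 5 h 1 was called higher, Tia1 (0.55 ± 0.14, edgeR adjusted p = 0.00313), and 9 lower, where 24.9% and 27.2% of all genes were.

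**Figure D5:**
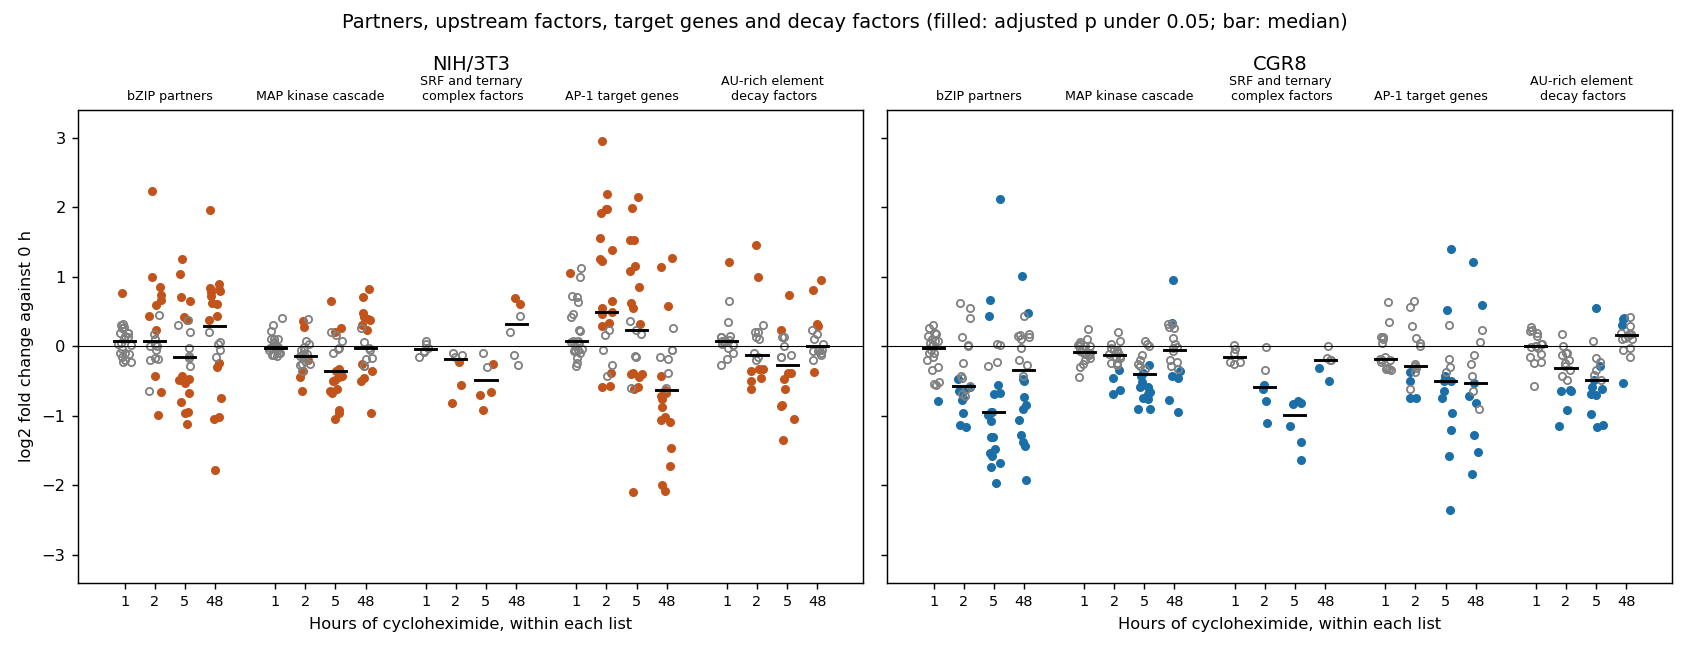
Log2 fold change against 0 h (vertical axis) of each gene tested in the 5 lists of partners, upstream factors, target genes and decay factors, by hours of cycloheximide within each list, in NIH/3T3 (left) and CGR8 (right); filled points were called at an adjusted p under 0.05 and bars are medians. The AP-1 target genes of NIH/3T3 have a median of 0.49 at 2 h and −0.63 at 48 h, and all 6 serum response factor genes of CGR8 lie below 0 at 5 h.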

How the data were processed

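The deposited table holds counts of reads for each gene, all of them whole numbers with no normalization apparent, and the columns of all 30 libraries were used. Per the submitters' processing notes, the GRCm39 build, STAR and DESeq2 were used, without versions or roles; the annotation release and the use of strand in counting are not given in the sources used here. Per the labels' protocols, libraries came from a stranded mRNA ligation kit. Without version suffixes, 51880 identifiers (90.7%) matched a symbol. The symbol Rps6ka4 was not matched.

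Each line's 15 libraries were fitted with edgeR 4.0.16 in R 4.3.3 (filterByExpr, its count minimum 10 and total minimum 15, TMM factors, quasi-likelihood F test, 1 coefficient per time), and line differences in a model of all 30. P-values were adjusted by Benjamini-Hochberg over all genes tested, and a gene was called under 0.05. Log2 CPM for likeness used a prior count of 2. The members and lists were chosen with earlier results of these data known. Genes were named from each list as the called gene with the largest rise and fall at 2 h and 5 h at 5 CPM or more on average in whichever group was higher. For members whose 5 group means span at least 1 on the log2 scale, the 3 genes of highest r with a mean of 5 CPM at some time were taken, predicted genes aside. Those of Fosb and Fosl2 in CGR8 are left out because of few counts. Alternatives were RLE factors or library size alone, DESeq2 1.42.0, limma 3.58.1 voom with sample weights, no filter or a 5 CPM filter, fits of the compared groups, a block for the replicate letter, and omission of single libraries. For the lists, omitting libraries, and all alternatives for named genes, were chosen after seeing the data. The floor of 3 counts covers counting error only, since reads are not independent molecules. Some results are not reported here.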

Additional observations from a re-analysis of the deposited data

Results flagged for a closer look

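The change of some members from 0 h differed between the lines in the model of all 30 libraries, among members with at least 5 counts in every library compared. At 2 h the log2 difference, CGR8 minus NIH/3T3, was −2.87 for Fos, −3.54 for Junb and −3.39 for Atf3. At 5 h it was 2.07 for Junb and −3.16 for Atf3. The part of reads from the overlapping gene Prdx2 in the 5 h value of Junb in CGR8 was not tested. At 48 h it was −2.43 for Fos, 2.70 for Fosb and 1.57 for Jun. With 3 libraries per group, no single library's value of a member was tested as outlying, and the libraries that stood apart over all genes are named in the report.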

How the results depend on the processing

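Of 809 log2 fold changes of members under the alternatives, 771 stayed on the same side of the threshold, 34 did not, 4 had no adjusted p in DESeq2, and 0 changed sign among called values. The cause of the shifts below was not tested, except that a mean of at least 5 CPM removes members from the test. That filter gave 3 members called in NIH/3T3 at 1 h and 3 at 48 h, in CGR8 1 at 1 h and 0 at 2 h, then 2 at 5 h and 0 at 48 h, and 2 for the line difference at 48 h. Fitting only the compared groups gave 1 member in CGR8 at 2 h, voom gave 4 there and 3 for the line difference at 1 h, and DESeq2 gave 7 for the line difference at 2 h. With the replicate block, members called for the line difference at 2 h were 5 and not 4, and every other count of members was the same as without it. Deviations of the same letter correlated between −0.58 and 0.42, so the letters were not taken as pairs. For genes of the other lists, calls in NIH/3T3 at 1 h were 3, and 1 with the compared groups only, 6 with DESeq2, 10 without a filter and 35 with voom. In CGR8 they were 1 at 1 h, and 2 with the compared groups only, with DESeq2 or without a filter and 11 with voom, and at 2 h 13 with the compared groups only, not 26.

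Leaving out each library in turn gave, for NIH/3T3, 4 to 6 members called at 1 h and 6 to 8 at 2 h, then 4 to 5 at 5 h and 5 at 48 h. In CGR8 these were 2 to 3 and 1 to 4, then 3 to 4 and 2. The line difference gave 0 at 1 h and 4 to 6 at 2 h, then 4 at 5 h and 3 to 4 at 48 h, and at 0 h between the lines 7 to 8 were called. For the other lists the range in NIH/3T3 was 2 to 10 at 1 h and 34 to 54 at 2 h, then 54 to 59 at 5 h and 47 to 51 at 48 h. In CGR8 these were 0 to 1 and 13 to 30, then 54 to 59 and 21 to 31. Of 432 adjusted p-values of named list genes, 418 kept the call. Those that did not were Map3k1 (highest 0.107 in CGR8 and 0.0706 in NIH/3T3), Rps6ka5 (highest 0.0855) and Plaur in CGR8 at 2 h (0.0725 without replicate C of 2 h). Depth limits Fosb, Fosl1 and Fosl2 in CGR8.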
